A study of Mus musculus with 6 samples.

Results

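The genes described here encode the machinery that carries a cell from G1 towards S phase: the D-type cyclins Ccnd1, Ccnd2 and Ccnd3, their kinases Cdk4 and Cdk6, the inhibitors Cdkn1b, Cdkn2b, Cdkn2c and Cdkn2d, and the retinoblastoma gene Rb1. These 10 genes were picked by symbol from a table of 46452 genes, and 9 of them reached the mean of 1 FPKM (fragments scaled to gene length and library depth) needed for testing. RNA came from the hearts of mice aged 10 days, with 3 libraries labelled Nat10-CKO and 3 labelled Nat10flox/flox, from independent animals per the labels. Nat10 encodes an acetyltransferase that modifies cytidines in RNA, CKO names a conditional knockout, and flox/flox names loxP-flanked alleles. The sources used here do not name the Cre driver, the deleted part of the gene, the strain or the sexes, and so leave unsaid which cell type was meant to lose the gene.

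The libraries held 31155521 to 38051266 reads assigned to genes. Nat10 itself measured 8.28, 8.66 and 10.2 FPKM in libraries labelled Nat10-CKO, against 3.75, 4.18 and 4.71 FPKM in those labelled Nat10flox/flox. The target was thus higher where the label names a knockout, a direction that goes against that label, and whole-gene values cannot show whether an exon was lost. The cardiomyocyte genes Tnnt2, Actn2, Ryr2, Ttn, Myl2 and Mb were all present, summing to 7227 to 11075 FPKM in libraries labelled Nat10-CKO and 10896 to 11716 FPKM in those labelled Nat10flox/flox. A library of each group stood apart from its fellows. Nat10-CKO replicate 1 correlated at 0.968 and 0.959 with the other libraries of its label, which correlated at 0.987 with each other. Nat10flox/flox replicate 1 correlated at 0.949 and 0.951 with the others of its label, against 0.985 between those. That replicate held 194 FPKM of the nerve ganglion list (Th, Dbh, Prph, Chrna3 and Stmn2). Its fellows held 3.25 and 3.62 FPKM, and libraries labelled Nat10-CKO 1.12 to 2.22 FPKM. Most of the 194 FPKM came from Prph (116.6 FPKM) and Stmn2 (73.5 FPKM). Th and Chrna3 were also above the fellows of that replicate, at 2.19 and 0.102 FPKM, while Dbh was below them.

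D-type cyclins are made in response to growth signals and bind CDK4 or CDK6, and the kinases then phosphorylate the retinoblastoma protein and release E2F transcription factors that switch on S phase genes. The INK4 inhibitors described here (p15, p18 and p19, from Cdkn2b, Cdkn2c and Cdkn2d) bind CDK4 and CDK6 themselves. By contrast p27, from Cdkn1b, binds whole cyclin and kinase complexes and is best known for restraining CDK2. In the mouse heart, cardiomyocytes divide before birth, pass through a last round of DNA synthesis in the first days of life and then leave the cell cycle, while endothelial cells and fibroblasts keep dividing as the heart grows.

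Of the 9 members tested, 4 fell in libraries labelled Nat10-CKO and 0 rose at a limma adjusted p under 0.05. The members that fell were Ccnd1, Cdk6, Cdkn1b and Cdkn2c, a cyclin, a kinase and a pair of inhibitors. Over all 11996 genes tested, 16.0% were called lower, 24.4% higher and 40.5% either way, so a call in either direction was about as common among the members as elsewhere. The groups did not overlap for the same 4 members, where 55.9% of all tested genes were free of overlap, 24.4% with the Nat10-CKO label lower. The median log2 fold change of the members was -0.29, and that of all tested genes was 0.03. The median of the members was -0.14 when protein-coding genes were rescaled, where that of all genes was 0.16, and -0.52 with quantile normalization, where that of all genes was -0.02. No test of these shares was made.

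**Figure D1:**
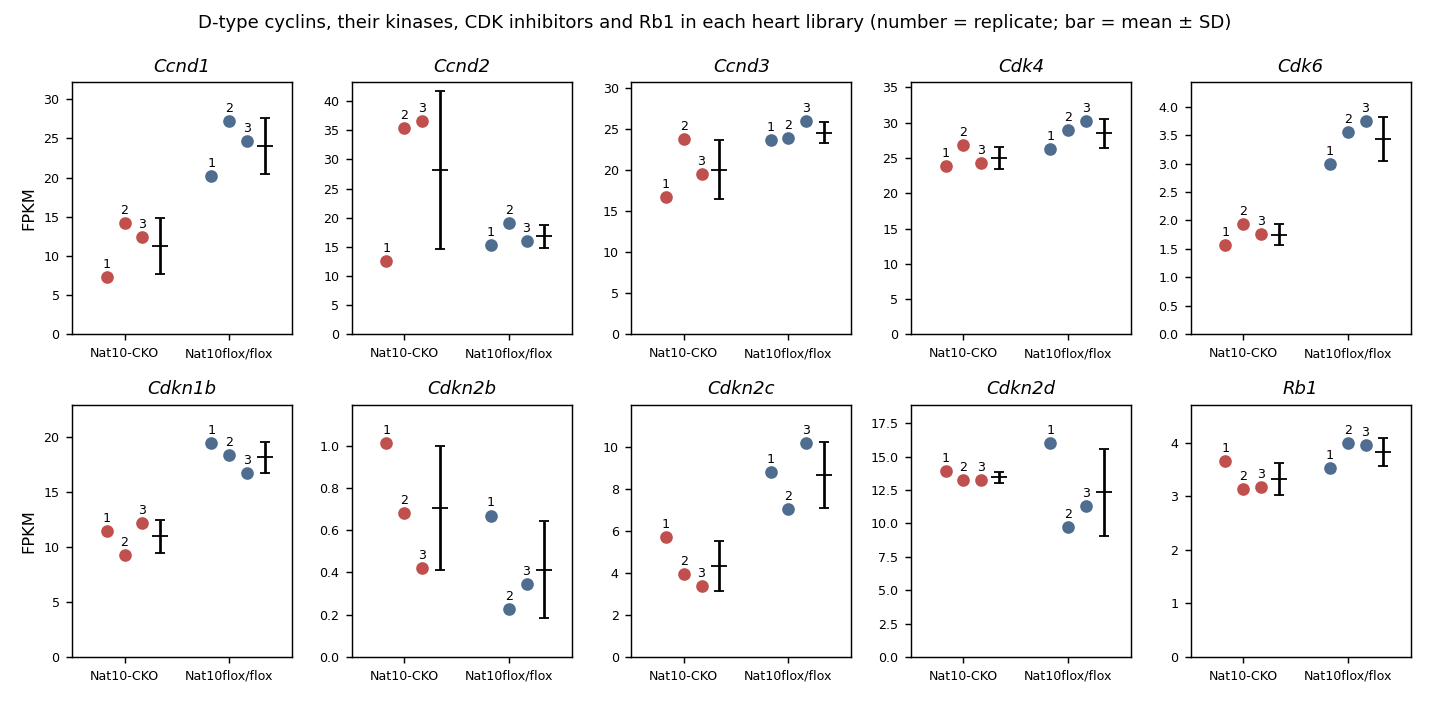
FPKM of each of the 10 genes in each library, with Nat10-CKO on the left, Nat10flox/flox on the right, the replicate number above each point and the mean ± SD beside the points. The groups are apart for Ccnd1, Cdk6, Cdkn1b and Cdkn2c, and the 3 Nat10-CKO points of Ccnd2 split, with 12.5 FPKM in replicate 1 against 35.4 and 36.6 FPKM in replicates 2 and 3.

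The 3 D-type cyclins did not move together. Ccnd1 (gene ID 12443, chromosome 7, 144483668 to 144493568, minus strand, GRCm39 as all positions of genes here) encodes cyclin D1, the member most directly induced by mitogens. It measured 7.34, 14.2 and 12.4 FPKM in libraries labelled Nat10-CKO, against 20.2, 27.2 and 24.7 FPKM in those labelled Nat10flox/flox. Every library labelled Nat10-CKO was below every one labelled Nat10flox/flox, and Nat10-CKO replicate 1 was the lowest of all. Mean levels were 11.3 ± 3.55 FPKM in libraries labelled Nat10-CKO and 24.04 ± 3.57 FPKM in those labelled Nat10flox/flox (SD over 3 each), so the level fell to 47.1% of the Nat10flox/flox mean. The log2 fold change was -1.06 ± 0.24 (SE, on the log2(FPKM + 1) scale) with a limma adjusted p of 0.0134. The call was lost without Nat10flox/flox replicate 2, where the log2 fold change was -0.97 and the adjusted p 0.0511. The gene's span shares 818 bp with LTO1 on the other strand, which averaged 6.80 FPKM in libraries labelled Nat10-CKO and 4.28 FPKM in those labelled Nat10flox/flox.

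Ccnd2 (gene ID 12444, chromosome 6, 127102125 to 127131913, minus strand) encodes cyclin D2, which is known to drive cardiomyocyte DNA synthesis when overexpressed in mouse hearts. It measured 12.5, 35.4 and 36.6 FPKM in libraries labelled Nat10-CKO, against 15.4, 19.1 and 15.9 FPKM in those labelled Nat10flox/flox. Nat10-CKO replicate 1 was below all Nat10flox/flox libraries, and the other Nat10-CKO libraries were above all of them. Mean levels were 28.2 ± 13.6 FPKM in libraries labelled Nat10-CKO and 16.8 ± 2.03 FPKM in those labelled Nat10flox/flox (SD over 3 each). Its log2 fold change of 0.58 ± 0.39 (SE) did not pass (adjusted p = 0.276 by limma, 95% interval -0.35 to 1.51). Without Nat10-CKO replicate 1 the log2 fold change was 1.06 with an adjusted p of 0.0017. Without both libraries that stand apart it was 1.0 with an adjusted p of 0.0042. The gene overlaps the lncRNA 9330179D12Rik on the other strand by 5562 bp, which averaged 0.211 FPKM in libraries labelled Nat10-CKO and 0.359 FPKM in those labelled Nat10flox/flox. Leaving out any other single library gave the Ccnd2 comparison an adjusted p of 0.318 to 0.57.

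**Figure D2:**
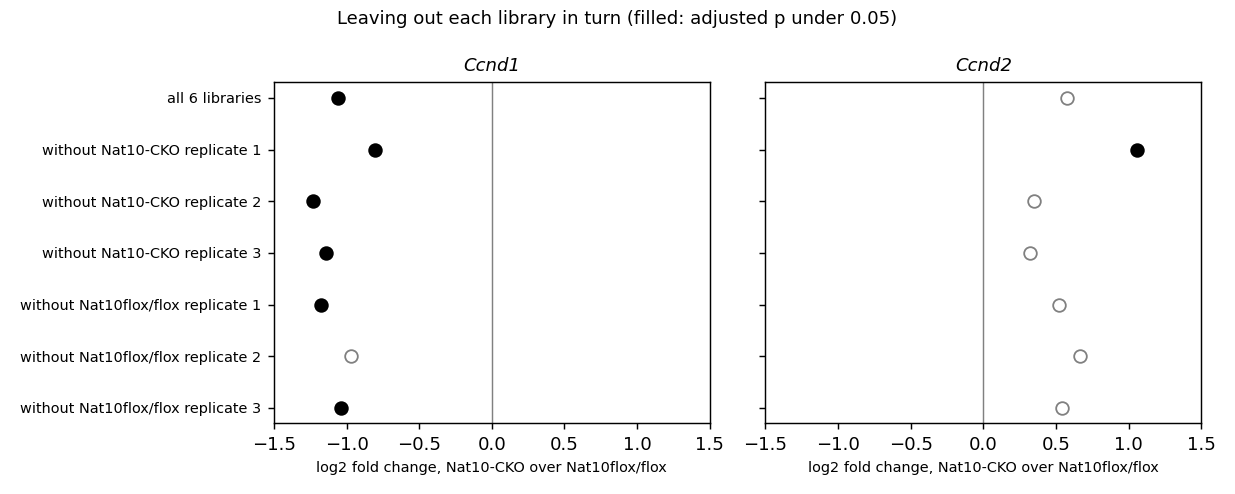
Log2 fold change of Ccnd1 (left) and Ccnd2 (right), Nat10-CKO over Nat10flox/flox, with all libraries and with each library left out, filled where the limma adjusted p was under 0.05. Ccnd1 stays between -1.23 and -0.80 over the 6 libraries left out, while Ccnd2 passes only without Nat10-CKO replicate 1, at 1.06.

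Ccnd3 (gene ID 12445, chromosome 17, 47815976 to 47910614, plus strand), cyclin D3, measured 16.8, 23.8 and 19.6 FPKM in libraries labelled Nat10-CKO, against 23.7, 23.9 and 26.0 FPKM in those labelled Nat10flox/flox. The groups overlapped by a narrow margin, through Nat10-CKO replicate 2. Its log2 fold change was -0.29 ± 0.14 (SE) and did not pass (adjusted p = 0.145 by limma, 95% interval -0.63 to 0.05). It passed when mitochondrially encoded genes were left out and the rest rescaled (-0.40, adjusted p = 0.0381) and under quantile normalization (-0.52, adjusted p = 0.0222). Those mitochondrial genes held 7.56% to 9.26% of the reads in libraries labelled Nat10-CKO and 16.6% to 18.3% in those labelled Nat10flox/flox. Its span shares 359 bp with Bysl on the other strand, a ribosome assembly gene that averaged 25.1 FPKM in libraries labelled Nat10-CKO and 7.22 FPKM in those labelled Nat10flox/flox. The sources used here do not say whether reads were counted by strand, so genes that overlap on opposite strands are uncertain in the bases they share.

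The sum over the 3 D-type cyclins was 36.6, 73.4 and 68.6 FPKM in libraries labelled Nat10-CKO and 59.2, 70.3 and 66.6 FPKM in those labelled Nat10flox/flox. Apart from Nat10-CKO replicate 1, at 36.6 FPKM, the sums of the 2 groups lay in a like range, and what differed was how they were made up. Ccnd1 held 20.03%, 19.3% and 18.1% of the sum in libraries labelled Nat10-CKO, against 34.1%, 38.8% and 37.0% in those labelled Nat10flox/flox. Ccnd2 held 34.2%, 48.2% and 53.4% in libraries labelled Nat10-CKO, against 25.9%, 27.2% and 23.9% in those labelled Nat10flox/flox. Neither share overlapped between the groups, Nat10-CKO replicate 1 included. In that replicate the higher Ccnd2 share was not a higher Ccnd2 level, which at 12.5 FPKM was below every library labelled Nat10flox/flox. The ratio of Ccnd2 to Ccnd1 within a library, which no scaling between libraries can alter, was 1.71, 2.50 and 2.95 in those labelled Nat10-CKO and 0.760, 0.702 and 0.646 in those labelled Nat10flox/flox. The most abundant D-type cyclin was therefore Ccnd3 in Nat10-CKO replicate 1, Ccnd2 in Nat10-CKO replicates 2 and 3, and Ccnd1 or Ccnd3 in libraries labelled Nat10flox/flox.

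**Figure D3:**
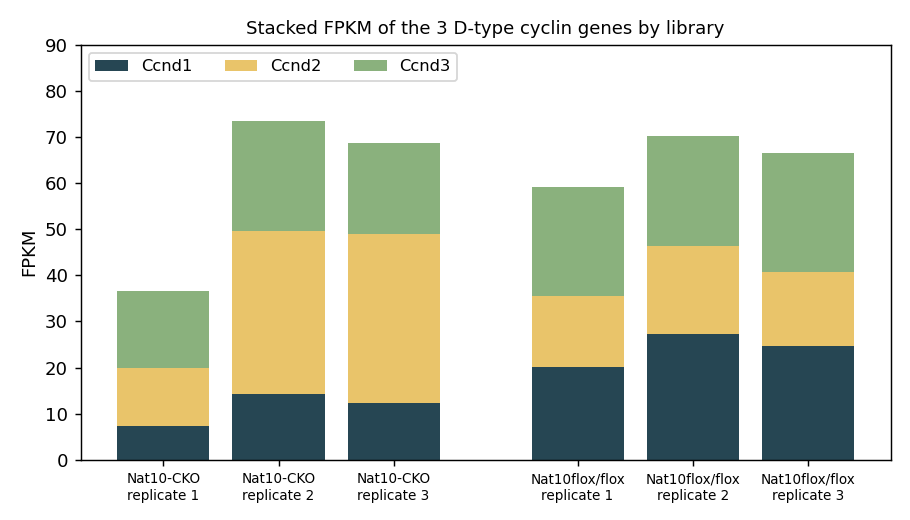
FPKM of Ccnd1, Ccnd2 and Ccnd3 stacked for each library, with Nat10-CKO replicates on the left and Nat10flox/flox replicates on the right. The dark Ccnd1 part is 18.1% to 20.03% of the bar in Nat10-CKO libraries and 34.1% to 38.8% in Nat10flox/flox libraries, and the Nat10-CKO replicate 1 bar is the shortest at 36.6 FPKM.

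The kinases differed in level and in whether they passed. Cdk4 (gene ID 12567, chromosome 10, 126899404 to 126903157, plus strand) measured 23.9, 26.8 and 24.3 FPKM in libraries labelled Nat10-CKO, against 26.3, 28.9 and 30.3 FPKM in those labelled Nat10flox/flox. The groups overlapped only through Nat10-CKO replicate 2 and Nat10flox/flox replicate 1, and the spread within each was small. The log2 fold change of -0.18 ± 0.11 (SE) did not pass (adjusted p = 0.214 by limma, 95% interval -0.43 to 0.07), but under quantile normalization it was -0.42 with an adjusted p of 0.02. Cdk6 (gene ID 12571, chromosome 5, 3391004 to 3581008, plus strand) measured 1.56, 1.93 and 1.76 FPKM in libraries labelled Nat10-CKO, against 2.999, 3.55 and 3.75 FPKM in those labelled Nat10flox/flox. No library labelled Nat10-CKO reached the lowest one labelled Nat10flox/flox. Its mean fell to 51.0% of the Nat10flox/flox mean, a log2 change of -0.69 ± 0.12 (SE; adjusted p = 0.00467 by limma), and the call held with each library left out in turn (adjusted p 0.00774 to 0.0244). Cdk6 made up 6.14% to 6.73% of the summed Cdk4 and Cdk6 FPKM in libraries labelled Nat10-CKO and 10.2% to 11.02% in those labelled Nat10flox/flox. Cdk4 was thus the main kinase transcript of the pair in every library.

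The promoters of the kinases are shown because Cdk4 holds several copies of the E-box CACGTG, the site read by MYC with MAX and by other factors of that class, while Myc itself rose in the same libraries (values with the other genes of the pathway). The sequences are the 250 bases before the start, from RefSeq on GRCm38.p6, 5′ to 3′, with each CACGTG in capitals.
Cdk4, chr10:127063285-127063534, plus strand: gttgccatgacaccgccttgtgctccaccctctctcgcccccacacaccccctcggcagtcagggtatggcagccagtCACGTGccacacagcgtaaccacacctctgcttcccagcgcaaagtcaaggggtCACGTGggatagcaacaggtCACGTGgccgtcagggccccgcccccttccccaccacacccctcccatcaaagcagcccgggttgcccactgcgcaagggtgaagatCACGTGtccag
Cdk6, chr5:3343643-3343892, plus strand: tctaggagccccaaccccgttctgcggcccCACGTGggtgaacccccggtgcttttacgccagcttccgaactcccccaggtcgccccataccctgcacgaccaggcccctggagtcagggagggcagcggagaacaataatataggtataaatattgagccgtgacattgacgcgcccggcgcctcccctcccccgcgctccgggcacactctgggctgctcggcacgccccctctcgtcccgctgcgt
The Cdk4 window holds 4 copies, which begin 172, 118, 98 and 11 bases before the start, and the Cdk6 window holds 1, beginning 220 bases before it. Of 32851 promoter windows in the RefSeq table, 6.02% hold CACGTG (the same on both strands) and 0.0609% hold at least 3 copies. The table had windows for 7 of the 10 members and none for Ccnd1, Ccnd2 or Rb1. In the other 7 member windows no CACGTG was found, and none of the 9 held an E2F word (TTTCCCGC, TTTCGCGC, TTTGCCGC or TTTGGCGC, either strand, in 1.86% of all windows) or an AP-1 word (TGACTCA or TGAGTCA, in 4.46%). A match of letters is a description and not a bound site. Cdk4 was not called in the main fit, Mycn fell, and a link between either MYC gene and Cdk4 was not tested.

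Among the inhibitors, Cdkn1b and Cdkn2c fell, Cdkn2d did not pass and Cdkn2b was too low to test. Cdkn1b (gene ID 12576, chromosome 6, 134897364 to 134902488, plus strand), p27, measured 11.4, 9.30 and 12.2 FPKM in libraries labelled Nat10-CKO, against 19.4, 18.3 and 16.7 FPKM in those labelled Nat10flox/flox. The groups were well apart and each was tight. Mean levels were 10.96 ± 1.49 FPKM in libraries labelled Nat10-CKO and 18.2 ± 1.39 FPKM in those labelled Nat10flox/flox (SD over 3 each), so the level fell to 60.4%. On the log2 scale the change was -0.68 ± 0.13 (SE), with an adjusted p of 0.00621 by limma. Over the single libraries left out, its adjusted p was 0.00973 to 0.0281.

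Cdkn2c (gene ID 12580, chromosome 4, 109518073 to 109523953, minus strand), p18, measured 5.68, 3.92 and 3.38 FPKM in libraries labelled Nat10-CKO, against 8.79, 7.04 and 10.2 FPKM in those labelled Nat10flox/flox. All Nat10-CKO values were below all Nat10flox/flox values, and the mean was 50.0% of the Nat10flox/flox mean. The log2 fold change was -0.87 ± 0.19 (SE) with an adjusted p of 0.0127 by limma, and 0.00435 to 0.0475 over the single libraries left out. Cdkn2d (gene ID 12581, chromosome 9, 21199755 to 21202717, minus strand), p19 of the INK4 family, measured 14.0, 13.3 and 13.2 FPKM in libraries labelled Nat10-CKO, against 16.0, 9.74 and 11.3 FPKM in those labelled Nat10flox/flox. The Nat10-CKO values lay inside the Nat10flox/flox range, and Nat10flox/flox replicate 1 was the highest of all. Its log2 fold change of 0.14 ± 0.17 (SE) did not pass (adjusted p = 0.534 by limma, 95% interval -0.27 to 0.56) and turned to -0.03 under quantile normalization.

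Cdkn2b (gene ID 12579, chromosome 4, 89224526 to 89229269, minus strand), p15, measured 1.01, 0.682 and 0.422 FPKM in libraries labelled Nat10-CKO, against 0.67, 0.227 and 0.343 FPKM in those labelled Nat10flox/flox. These values stand for 52, 33 and 20 reads in libraries labelled Nat10-CKO and 38, 10 and 17 reads in those labelled Nat10flox/flox. The groups overlapped, and in a fit without the filter on low values its log2 change of 0.27 ± 0.18 (SE) had an adjusted p of 0.409 by limma and was not called. In each group the library that stands apart had the highest value.

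Within the INK4 genes among the members the balance differed between the groups. Cdkn2a, the remaining INK4 gene, was left out of these sums. It averaged 0.0915 FPKM in libraries labelled Nat10-CKO and 0.246 FPKM in those labelled Nat10flox/flox. Cdkn2c held 27.5%, 22.0% and 19.9% of the summed INK4 FPKM in libraries labelled Nat10-CKO, against 34.5%, 41.4% and 46.6% in those labelled Nat10flox/flox. Cdkn2d held 67.6%, 74.2% and 77.7% in libraries labelled Nat10-CKO, against 62.9%, 57.3% and 51.8% in those labelled Nat10flox/flox. Cdkn2d was thus the most abundant INK4 transcript in all 6 libraries, and neither share overlapped between the groups. The sum itself overlapped, at 17.03 to 20.7 FPKM in libraries labelled Nat10-CKO and 17.01 to 25.5 FPKM in those labelled Nat10flox/flox.

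Rb1 (gene ID 19645, chromosome 14, 73430298 to 73563446, minus strand), the substrate of the kinases, measured 3.66, 3.13 and 3.17 FPKM in libraries labelled Nat10-CKO, against 3.52, 3.99 and 3.95 FPKM in those labelled Nat10flox/flox. The groups overlapped through replicate 1 of each label. Its log2 fold change of -0.16 ± 0.10 (SE) did not pass (adjusted p = 0.25 by limma, 95% interval -0.40 to 0.08), although with array weights, which give less weight to libraries that fit their group poorly, it was -0.24 with an adjusted p of 0.0248. Lpar6, which shares 2468 bp with the Rb1 span on the other strand, averaged 3.08 FPKM in libraries labelled Nat10-CKO and 6.32 FPKM in those labelled Nat10flox/flox.

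**Figure D4:**
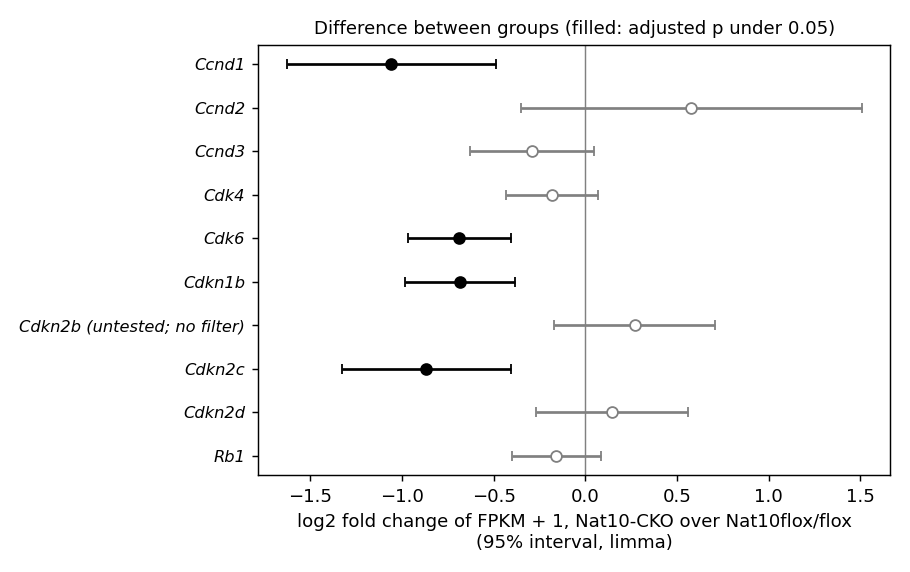
Log2 fold change of FPKM + 1 for each of the 10 genes, Nat10-CKO over Nat10flox/flox, with the 95% interval from limma and filled points where the adjusted p was under 0.05. The 4 filled points, Ccnd1, Cdk6, Cdkn1b and Cdkn2c, lie between -1.06 and -0.68, and Ccnd2 has the widest interval, -0.35 to 1.51.

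FPKM is per length, so levels can be set against each other as far as the deposited length of each gene holds. That length is a single value per gene, such as 1420 bp for Cdk4 and 12096 bp for Cdk6. Whether it matches the transcripts made in these hearts was not tested. In libraries labelled Nat10-CKO the order of mean level was Ccnd2, Cdk4, Ccnd3, Cdkn2d, Ccnd1, Cdkn1b, Cdkn2c, Rb1, Cdk6 and Cdkn2b, from 28.2 down to 0.706 FPKM. Neighbours whose ranges overlapped there were Ccnd2 and Cdk4, Cdkn2d and Ccnd1, Ccnd1 and Cdkn1b, and Cdkn2c and Rb1. In libraries labelled Nat10flox/flox it was Cdk4, Ccnd3, Ccnd1, Cdkn1b, Ccnd2, Cdkn2d, Cdkn2c, Rb1, Cdk6 and Cdkn2b, from 28.5 down to 0.413 FPKM. There the overlapping neighbours were Ccnd3 and Ccnd1, Cdkn1b and Ccnd2, Ccnd2 and Cdkn2d, Cdkn2d and Cdkn2c, and Rb1 and Cdk6. The spread also differed by gene. The standard deviation over libraries labelled Nat10-CKO was 48.2% of the mean for Ccnd2 and 31.4% for Ccnd1 but 3.09% for Cdkn2d, while over those labelled Nat10flox/flox it was 12.1%, 14.9% and 26.5% for these genes.

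Other genes of the pathway were counted in lists. At the next step of the cell cycle, where cyclin E and CDK2 take over, 4 of 7 genes were tested, 1 rose and 1 fell. Cdkn1a, which encodes p21, the sister inhibitor of p27 and a p53 target, measured 214, 152 and 153 FPKM in libraries labelled Nat10-CKO, against 14.4, 14.4 and 13.3 FPKM in those labelled Nat10flox/flox (log2 fold change 3.52, adjusted p = 0.00011 by limma). Every library labelled Nat10-CKO was above every one labelled Nat10flox/flox for Cdkn1a and below it for Cdkn1b. The ratio of Cdkn1a to Cdkn1b FPKM within a library was 18.8, 16.4 and 12.6 in those labelled Nat10-CKO and 0.741, 0.786 and 0.796 in those labelled Nat10flox/flox. Cdk2 measured 5.59, 3.47 and 2.85 FPKM in libraries labelled Nat10-CKO, against 6.06, 6.98 and 8.23 FPKM in those labelled Nat10flox/flox, and fell with an adjusted p of 0.0333. That call was lost without any single library other than Nat10-CKO replicate 1 (adjusted p 0.0519 to 0.106). Ccne1, cyclin E1, named after its values were seen, was below the filter. It measured 0.346 to 0.53 FPKM in libraries labelled Nat10-CKO and 0.743 to 1.51 FPKM in those labelled Nat10flox/flox, without overlap. In a fit without the filter its limma adjusted p was 0.101. Ccne2, cyclin E2, also named after its values were seen, was below the filter too. It averaged 0.081 FPKM (6 to 11 reads) in libraries labelled Nat10-CKO and 0.412 FPKM (31 to 61 reads) in those labelled Nat10flox/flox, without overlap. Its limma adjusted p without the filter was 0.0123.

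In the list of Rb relatives and E2F factors, 7 of 12 genes were tested, 1 rose and 2 fell. In a fit without the filter all 12 were tested, 1 rose and 3 fell. Those that fell there were E2f2, E2f7 and E2f8, named after their values were seen. They averaged 32.7%, 30.9% and 30.9% of the Nat10flox/flox mean, without overlap, with limma adjusted p values of 0.0243, 0.0467 and 0.0104. E2f1, an activator released from RB, averaged 1.12 ± 0.268 FPKM in libraries labelled Nat10-CKO and 2.45 ± 0.566 FPKM in those labelled Nat10flox/flox (SD, n = 3 per group), with an adjusted p of 0.0175 by limma, or 0.0508 without Nat10flox/flox replicate 3. Rbl2, which encodes the RB relative p130, averaged 8.15 ± 0.783 FPKM in libraries labelled Nat10-CKO and 10.6 ± 0.773 FPKM in those labelled Nat10flox/flox (adjusted p = 0.0404 by limma). E2f4, the E2F that partners p130, averaged 21.7 ± 0.223 FPKM in libraries labelled Nat10-CKO and 17.8 ± 0.2 FPKM in those labelled Nat10flox/flox (adjusted p = 0.0446 by limma). The call of Rbl2 was lost without any single library other than Nat10-CKO replicate 3 (adjusted p 0.0555 to 0.131), and that of E2f4 was lost without any single library (0.0504 to 0.135). E2f4 also lost its call with mitochondrial genes left out (log2 fold change 0.16) and under quantile normalization (0.05).

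Of 17 S phase genes known as E2F targets, 12 were tested, 5 fell and 0 rose, with a median log2 fold change of -0.51 against 0.03 for all tested genes. The count was 3 without Nat10-CKO replicate 2 or 3 or without Nat10flox/flox replicate 2 or 3, and 8 without both libraries that stand apart. At a mean of 5 FPKM or more only 3 genes of the list could be tested, and 0 were called. Ccna2, cyclin A2, measured 0.442, 0.316 and 0.261 FPKM in libraries labelled Nat10-CKO, against 1.75, 3.27 and 2.97 FPKM in those labelled Nat10flox/flox. Rrm2, a subunit of ribonucleotide reductase, averaged 16.5% and Tk1, thymidine kinase, 26.1% of the Nat10flox/flox mean, with adjusted p values of 0.00272 and 0.00407 by limma. Ccna2, Rrm2 and Tk1 averaged 0.34, 0.585 and 0.777 FPKM in libraries labelled Nat10-CKO. These genes passed the filter of 1 FPKM on the mean only through the Nat10flox/flox group. The count and median of the list therefore depend in part on the filter. In a fit without the filter 17 were tested, 7 fell and 0 rose, with a median of -0.49 against -0.01 for all genes. The list was not uniform: Pcna, the sliding clamp of DNA polymerase, named after its values were seen, measured 42.7, 31.3 and 31.2 FPKM in libraries labelled Nat10-CKO, against 29.6, 27.8 and 35.0 FPKM in those labelled Nat10flox/flox, and did not pass (adjusted p = 0.422).

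The kinase that activates CDK4 and CDK2 (CDK7, cyclin H and MNAT1) and the CDK4 chaperone CDC37 were all tested, and 1 of 4 genes rose and 1 fell. Mnat1, the assembly factor of that kinase, averaged 9.47 ± 1.45 FPKM in libraries labelled Nat10-CKO and 4.195 ± 0.18 FPKM in those labelled Nat10flox/flox (adjusted p = 0.00127 by limma). Ccnh, its cyclin, averaged 5.72 ± 1.32 FPKM in libraries labelled Nat10-CKO and 9.59 ± 0.421 FPKM in those labelled Nat10flox/flox (adjusted p = 0.0149, or 0.0516 without Nat10flox/flox replicate 1). Cdk7, the kinase subunit, named after its values were seen, averaged 2.63 ± 0.432 FPKM in libraries labelled Nat10-CKO and 3.18 ± 0.114 FPKM in those labelled Nat10flox/flox and did not pass (adjusted p = 0.203), so 2 of the 3 subunits were called, in opposite directions.

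Among 9 genes named in the turnover of D-type cyclins and p27, 8 were tested, 3 rose and 0 fell. The number that fell was 1 without Nat10-CKO replicate 1 or 3, and 2 with quantile normalization or array weights. The number that rose was 2 without Nat10flox/flox replicate 2 or 3 and in a fit without the filter. It was 4 with array weights and when protein-coding genes were rescaled. Ambra1, the substrate receptor that marks D-type cyclins for destruction, measured 19.6, 16.3 and 17.5 FPKM in libraries labelled Nat10-CKO, against 6.88, 6.67 and 7.84 FPKM in those labelled Nat10flox/flox, a 2.50-fold rise (adjusted p = 0.00055 by limma). Gsk3b, a kinase that phosphorylates cyclin D1, rose 1.45-fold (adjusted p = 0.016), and its call was lost without Nat10flox/flox replicate 2 or 3 (0.0526 to 0.0557). The Gsk3b call was also lost with mitochondrial genes left out (limma adjusted p = 0.0546) and under quantile normalization (0.0537). Cryab, a small heat shock protein reported to act with the F-box protein FBXO4, rose 2.52-fold, with a far higher level than the others (1115 ± 395 FPKM in libraries labelled Nat10-CKO and 442 ± 46.7 FPKM in those labelled Nat10flox/flox). Its limma adjusted p was 0.0124, or 0.0512 in a fit without the filter. Skp2, the receptor for p27, named after its values were seen, was below the filter, at 0.507 to 0.607 FPKM in libraries labelled Nat10-CKO and 0.572 to 0.786 FPKM in those labelled Nat10flox/flox.

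Of 16 transcription regulators known to act on D-type cyclin genes, 15 were tested, 5 rose and 3 fell, where 24.4% of all tested genes rose and 16.0% fell. The number that rose was 4 in a fit without the filter and 8 when protein-coding genes were rescaled. The number that fell was 4 with array weights and 0 of 11 tested at a mean of 5 FPKM or more. Myc measured 16.8, 15.7 and 15.6 FPKM in libraries labelled Nat10-CKO, against 2.52, 2.57 and 2.89 FPKM in those labelled Nat10flox/flox, a 6.04-fold rise. Its relative Mycn, which acts in the growing embryonic heart, measured 0.648, 0.499 and 0.442 FPKM in libraries labelled Nat10-CKO, against 3.64, 4.25 and 2.35 FPKM in those labelled Nat10flox/flox. The 2 MYC genes moved in opposite directions, with limma adjusted p values of 7.65e-05 and 0.00141. Mycn averaged 0.53 FPKM in libraries labelled Nat10-CKO and passed the filter of 1 FPKM on the mean only through the Nat10flox/flox group. In a fit without the filter its adjusted p was 0.00694 by limma. Foxm1, named after its values were seen, was also called lower and passed the filter in the same way. It averaged 0.31 FPKM in libraries labelled Nat10-CKO and 1.77 FPKM in those labelled Nat10flox/flox. Fosl2, an AP-1 factor, rose 2.51-fold (adjusted p = 0.00184).

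**Figure D5:**
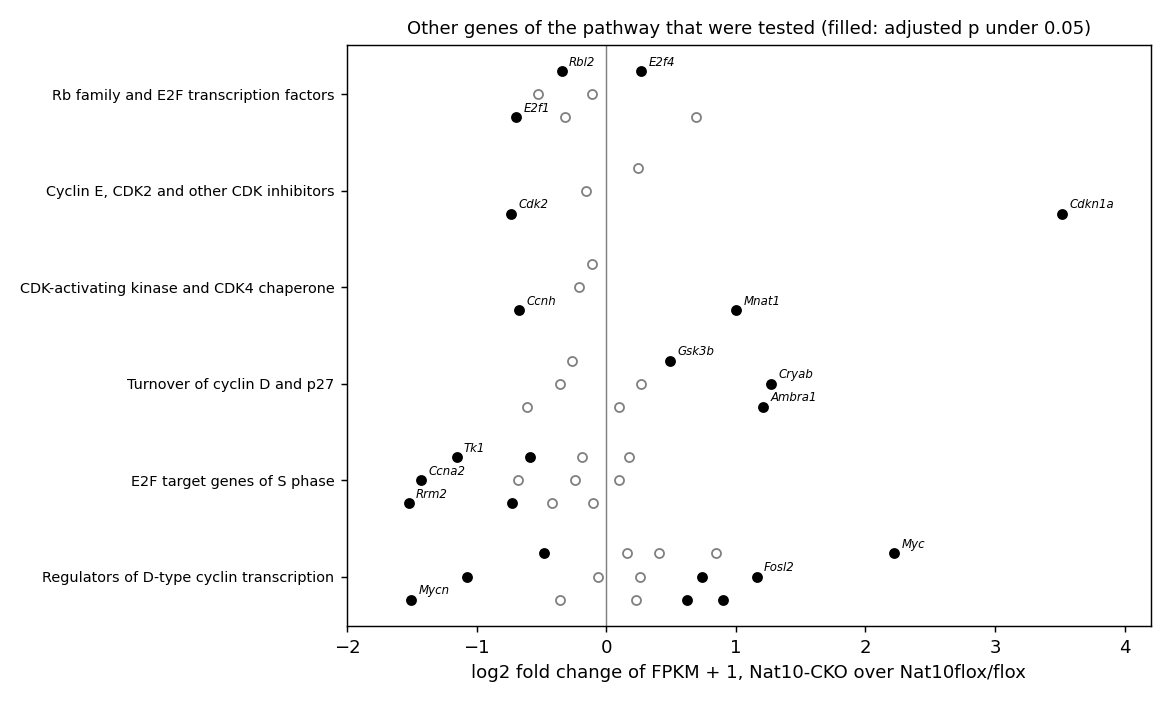
Log2 fold change of FPKM + 1, Nat10-CKO over Nat10flox/flox, for each tested gene of the 6 pathway lists, filled where the limma adjusted p was under 0.05, with the genes described in the text named. Filled points of the S phase list all lie below 0 (5 of 12), and Cdkn1a stands farthest to the right at 3.52. Ccna2, Rrm2, Tk1 and Mycn passed the filter on the mean only through the Nat10flox/flox group.

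Markers of some other cell types were also lower in libraries labelled Nat10-CKO, and those of others were not called. In bulk tissue, fewer cells of a type and less RNA per cell cannot be told apart. All 6 endothelial markers (Pecam1, Cdh5, Kdr, Tek, Emcn and Cldn5) fell at a limma adjusted p under 0.05, with a summed level of 142 to 149 FPKM in libraries labelled Nat10-CKO and 233 to 289 FPKM in those labelled Nat10flox/flox. The number that fell was 3 when protein-coding genes were rescaled, in a fit without the filter, and without Nat10-CKO replicate 2 or 3 or without Nat10flox/flox replicate 2 or 3. Of 6 pericyte and smooth muscle markers 5 were tested and 3 fell, with a summed level of 118 to 155 FPKM in libraries labelled Nat10-CKO and 239 to 279 FPKM in those labelled Nat10flox/flox. That count was 2 without Nat10-CKO replicate 2 or without any single library labelled Nat10flox/flox. Of 6 fibroblast markers 0 were called, with sums of 323 to 503.8 FPKM in libraries labelled Nat10-CKO and 303 to 339 FPKM in those labelled Nat10flox/flox. Without Nat10-CKO replicate 1 there was 1 called higher, without replicate 2 there was 1 called lower, and without replicate 3 there were 2 called higher, while array weights gave 3 higher. Of 6 macrophage and leukocyte markers 0 were called, with sums of 319 to 399 FPKM in libraries labelled Nat10-CKO and 327 to 455 FPKM in those labelled Nat10flox/flox, and 1 was lower without Nat10-CKO replicate 1. No marker of these 4 lists was at 0 in all libraries. Of 6 epicardial and mesothelial markers 3 were tested and 1 fell, with sums of 3.83 to 10.3 FPKM in libraries labelled Nat10-CKO and 4.65 to 5.49 FPKM in those labelled Nat10flox/flox. The marker that fell, Wt1, lost its call without any 1 library labelled Nat10-CKO and without Nat10flox/flox replicate 1 or 2, and without Nat10-CKO replicate 3 another marker was called higher. Of the 6 cardiomyocyte markers 0 were called, with 1 higher without Nat10-CKO replicate 1, 1 lower without Nat10-CKO replicate 3 and 2 lower with mitochondrial genes left out. The lowest sum of that list, 7227 FPKM, was that of Nat10-CKO replicate 1, the library with the lowest Ccnd1, Ccnd2 and Ccnd3. The part of these shifts in the values of the members was not tested.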

How the data were processed

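Poly(A) RNA from hearts of mice aged 10 days was sequenced in 6 directional libraries, per the labels' protocols. Alignment used HISAT2 2.2.1 on GRCm39 and counting used featureCounts 2.0.6, per the series' design text. CASAVA and DESeq2 1.42.0 also appear in the submitters' processing notes. The authors deposited FPKM per gene and library for 46452 genes. Multiplying FPKM by length gave whole reads for 100% of values (within 0.01 read). The implied library scalings matched size factors of the median-of-ratios kind (ratio 1), so the deposited FPKM already carry them. For a 1 kb gene, 1 read corresponds to 0.0246 to 0.0316 FPKM, depending on the library. The labels were compared by limma 3.58.1 (R 4.3.3, moderated linear model with a mean trend, two-sided) on log2(FPKM + 1), over 11996 genes with a mean of at least 1 FPKM, with Benjamini-Hochberg adjustment over all of them and a threshold of 0.05. This scale understates the change of low genes. Percentages and folds between groups are ratios of mean FPKM. The members and the lists were chosen with earlier results of these data known. All members are named, with Nat10 and up to 3 called genes of each pathway list with the smallest adjusted p. On simulated reads the share of false calls lay above the threshold over all genes tested, and below it among genes averaging at least 20 reads. Not all of the smallest simulated fold changes were recovered. The simulation gave every gene the same dispersion (0.0135), changed far fewer genes than were called here and held no library that stood apart. Its shares may therefore not hold for the real libraries. The main fit did not pair libraries of the same replicate number (see the closing section). Promoter windows came from RefSeq on GRCm38.p6. Figures were drawn with matplotlib 3.10.9. A marker gene of the nerve ganglion list is not reported here.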

Additional observations from a re-analysis of the deposited data

How the results depend on the processing

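Over 20 alternatives, Cdk6, Cdkn1b and Cdkn2c kept their direction and their call wherever they were tested, and Ccnd1 lost its call only without Nat10flox/flox replicate 2. No member was called higher in the fit with all libraries, and 1 (Ccnd2) was with array weights, without Nat10-CKO replicate 1 and without both libraries that stand apart. The number called higher was 0 to 1 with each library left out, and the number called lower 3 to 4. It was 5 with mitochondrial genes left out, 5 with array weights and 6 with quantile normalization. When calls also had to pass a minimum log2 change of 1 in size, 1 member was called lower. That requirement left 1520 of 4856 calls over all genes, 960 higher and 560 lower. Over all genes, 1159 were lower under a filter of 5 FPKM on the mean, and 3007 under array weights. With each library left out, 3333 to 5047 genes were called, 2126 to 3123 of them higher and 1207 to 1924 lower. The fewest calls came without Nat10flox/flox replicate 2. Cdkn2d turned sign under quantile normalization, to a log2 fold change of -0.032. Higher calls made up 60.4% of all calls, 48.7% after mitochondrial genes were left out, 52.7% when libraries were quantile normalized, and 72.2% after rescaling on protein-coding genes. That rescaling moved the median log2 fold change of all tested genes to 0.16. The cause was not tested. Deviations of same-numbered libraries correlated at 0.0649, 0.0373 and 0.105 for numbers 1, 2 and 3. Those of libraries with different numbers correlated at -0.116 to 0.0722. With 3 libraries per group these values cannot decide whether same-numbered libraries belong together. Not every library correlated best with its own number: Nat10-CKO replicate 2 did so with Nat10flox/flox replicate 1 (0.0415), and Nat10flox/flox replicate 2 with Nat10-CKO replicate 3 (0.0722). With the replicate block 4390 genes were called, and the same number of members, 4, was called lower. The edgeR and DESeq2 alternatives were not run, since the file holds FPKM. Depth limits Cdkn2b, at 10 to 52 reads per library.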
